A study of Mus musculus with 12 samples.

Results

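The effect of losing SAMHD1 was described over both states of MDA5, as the average of a pair of differences that share no library. The first difference was SAMHD1 knockout (SAMHD1 KO) minus wild type (WT), with MDA5 present. The other was the double knockout (SAMHD1 MDA5 DKO) minus MDA5 KO, with MDA5 absent. The 6 libraries without SAMHD1 were thus set against the 6 with it, which uses all 12 libraries of the series, and a gene's pooled value is the average of its 2 differences. All were RNA-seq libraries from total RNA of mouse peritoneal macrophages, untreated and at day 0, with 3 libraries per genotype. The labels name no strain, sex, age, allele or animal, so the p-values below measure only the spread between these libraries, which may be technical. Nor do the labels say which part of a gene was deleted, or whether the knockout acts in macrophages alone.

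Of 25564 genes present in both deposited tables that hold these pairs, 15511 had the same sign in both differences, 6570 higher and 8941 lower without SAMHD1. The other 10053 did not, 182 of them with a difference of 0. Reads were high enough for a test in 15130 genes, of which 4957 (32.8%) were higher in both states, 4904 (32.4%) were lower in both and 5269 were neither. The sign chose these genes, so it is given as a description. In the deposited values of SAMHD1 MDA5 DKO 3, each gene stood at the mean of the other 5 libraries of its table, so the deposited sign with MDA5 absent rests on those 5. Levels and tests below therefore use whole reads solved from the tables, in which all 12 libraries carry their own values. In that fit, 116 of the same-sign genes had a pooled value of the other sign.

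SAMHD1 is an enzyme that hydrolyses deoxynucleoside triphosphates, the building blocks of DNA, and it is also known to act on nucleic acids at stalled replication forks. Its loss is known for a raised interferon response. Type I interferons act through a receptor and its kinases on transcription factors that bind a DNA element built from repeated GAAA cores in the promoters of interferon-stimulated genes. MDA5 (gene symbol Ifih1) senses long double-stranded RNA in the cytosol and can start interferon production, and resident macrophages of the peritoneal cavity express such sensors.

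The promoters of 5 leading genes of the type I interferon list are printed because they show that DNA element or its absence. Being chosen from that list, they do not stand for the leading genes as a whole. Each is RefSeq sequence of GRCm38.p6 over 150 bases before and 30 from the start site, 5′ to 3′ on the strand of the gene. They are Oasl1 (chr5:114923090-114923269, plus strand), Ifi44 (chr3:151749881-151750060, minus), Helz2 (chr2:181241998-181242177, minus), Rsad2 (chr12:26456423-26456602, minus) and Phf11d (chr14:59365461-59365640, minus). Capitals mark a match, on either strand, to GAAANNGAAA or to GAAANGAAA, the second of which was added after the sequences had been seen.
Oasl1: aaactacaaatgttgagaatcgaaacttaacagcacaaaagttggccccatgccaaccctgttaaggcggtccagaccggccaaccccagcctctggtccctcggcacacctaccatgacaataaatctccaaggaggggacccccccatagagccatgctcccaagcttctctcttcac
Ifi44: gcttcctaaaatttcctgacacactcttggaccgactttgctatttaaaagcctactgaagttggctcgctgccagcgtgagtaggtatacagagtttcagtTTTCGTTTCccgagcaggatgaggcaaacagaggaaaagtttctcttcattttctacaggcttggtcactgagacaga
Helz2: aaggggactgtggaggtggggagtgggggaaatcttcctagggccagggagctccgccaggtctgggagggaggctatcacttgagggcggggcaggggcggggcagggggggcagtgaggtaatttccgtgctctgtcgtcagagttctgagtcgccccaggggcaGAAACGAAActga
Rsad2: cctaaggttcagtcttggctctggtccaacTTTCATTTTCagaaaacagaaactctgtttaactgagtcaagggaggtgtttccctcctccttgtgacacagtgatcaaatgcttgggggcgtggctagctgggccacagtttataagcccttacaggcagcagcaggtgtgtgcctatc
Phf11d: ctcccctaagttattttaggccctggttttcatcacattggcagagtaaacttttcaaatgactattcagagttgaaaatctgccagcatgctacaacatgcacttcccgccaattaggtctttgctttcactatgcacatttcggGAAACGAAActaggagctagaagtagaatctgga

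Rsad2 held GAAANNGAAA on the opposite strand, 120 bases before the start site. Ifi44 held GAAANGAAA on the opposite strand 48 bases before it. In Phf11d a match to GAAANGAAA on its own strand began 4 bases before the start site and ran across it. In Helz2 such a match began 17 bases after the start site. Each position is that of the first printed base of the match. Oasl1 had 0 matches in this window. Over 300-base promoters, GAAANNGAAA occurred in 3.44% of 32851 and in 40.4% of the 109 that belong to the type I interferon list. GAAANGAAA occurred in 3.17% of all and in 21.1% of that list. Either motif was found in 6.27% of all promoters and 52.3% of those of the list, and both in 0.335% and 9.17%. An entry existed for 80 of the 97 tested genes of the list. A match is a string of letters and shows no binding.

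Solved totals ran from 33234361 reads in WT 3 to 58345425 in SAMHD1 MDA5 DKO 1, with a median of 43911528. WT 3 stood apart, with a median absolute log2 gap of 0.89 per gene to the mean of the other libraries of its genotype, against 0.21 to 0.53 in the other 11. MDA5 KO 2 had reads in 800 olfactory receptor genes, against 107 to 194 in the other 11 libraries. SAMHD1 KO 2 and 3 lay closer to each other than any other pair of the same genotype. Their median absolute log2 difference was 0.119 against 0.228 to 0.917 in the other 11 pairs, and their mean chi-square per gene was 6.87 against 55.1 to 821. They differed by more than counting error, which does not show that they are separate samples. They were kept as 2 libraries, as labelled, and were also counted as 1. Fits without WT 3 and MDA5 KO 2 together, and with SAMHD1 KO 2 and 3 averaged, were added after seeing the data.

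The targeted gene was the only gene that passed the pooled test. Samhd1 (chromosome 2, 157097533 to 157135265 on GRCm38) had 3689, 3253 and 2954 normalised reads in SAMHD1 KO, against 17120, 15520 and 7067 in WT. It had 4960, 3331 and 1747 in SAMHD1 MDA5 DKO, against 17460, 14950 and 16060 in MDA5 KO. All 6 libraries without SAMHD1 lay below all 6 with it, and the level in SAMHD1 KO was 24.9% of that in WT and in SAMHD1 MDA5 DKO 20.7% of that in MDA5 KO. Reads from parts of the gene that the deletion leaves in place would still be counted.

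Samhd1 fell by 2.15 ± 0.26 on the log2 scale (SE, 6 libraries a side; limma adjusted p = 0.0361). An exact two-sided permutation of libraries within each MDA5 state gave p = 0.005, the smallest that its 400 assignments can give. The call fell on 1 of 15130 genes, or 0.00661% in that direction, and 0 genes rose. At an unadjusted limma p under 0.05 there were 783 genes higher (5.18%) and 474 lower (3.13%). Scaling by total reads turned this split to 593 higher and 663 lower and moved the adjusted p of Samhd1 to 0.0749. Of the 12 fits that leave out 1 library, 3 kept the call (those without WT 3 and without library 1 or 3 of SAMHD1 MDA5 DKO). The other 9 lost it, with a limma adjusted p of 0.103 to 0.209. With SAMHD1 KO 2 and 3 averaged as 1 library, its adjusted p was 0.186 with a log2 value of -2.13, and 0 genes were called.

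Ifih1, the MDA5 gene, had 3745, 3163 and 3172 normalised reads in SAMHD1 KO, against 3357, 2421 and 816 in WT. It had 4.18, 0.881 and 41.9 in SAMHD1 MDA5 DKO, against 0.855, 20 and 0 in MDA5 KO, near 0 in all 6 libraries labelled as lacking MDA5. WT 3 was the low library of the MDA5-present pair, and the deposited differences were of opposite sign. Its pooled value was 0.99 ± 0.81 log2, and from 0.36 (without SAMHD1 MDA5 DKO 3) to 1.65 with 1 library left out.

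By limma, SAMHD1 KO minus WT called 0 genes on its own, with 2336 at an unadjusted p under 0.05 and a smallest adjusted p of 0.312. SAMHD1 MDA5 DKO minus MDA5 KO also called 0, with 154 at an unadjusted p under 0.05 and a smallest adjusted p of 0.419. The difference between these effects was tested gene by gene and called 0 genes, with 485 (3.21%) at an unadjusted p under 0.05 and a smallest adjusted p of 0.894. Voom called 0 in each of these 3 tests. Other limma routes called more: without a trend 1 with MDA5 present, with voom quality weights 2140 with MDA5 present, 1 with it absent and 2 for the difference, and with array quality weights 6829, 2 and 1333. These tests do not show that the effects are alike. Of the 9861 tested same-sign genes, the 116 with a pooled value of the other sign were left out of the next count. The difference with MDA5 present was the larger in size in 7813 of the rest, and in 25 of the 30 leading genes described below. That pair holds WT 3, the library farthest from the others of its genotype, and its part in these counts was not tested.

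**Figure D1:**
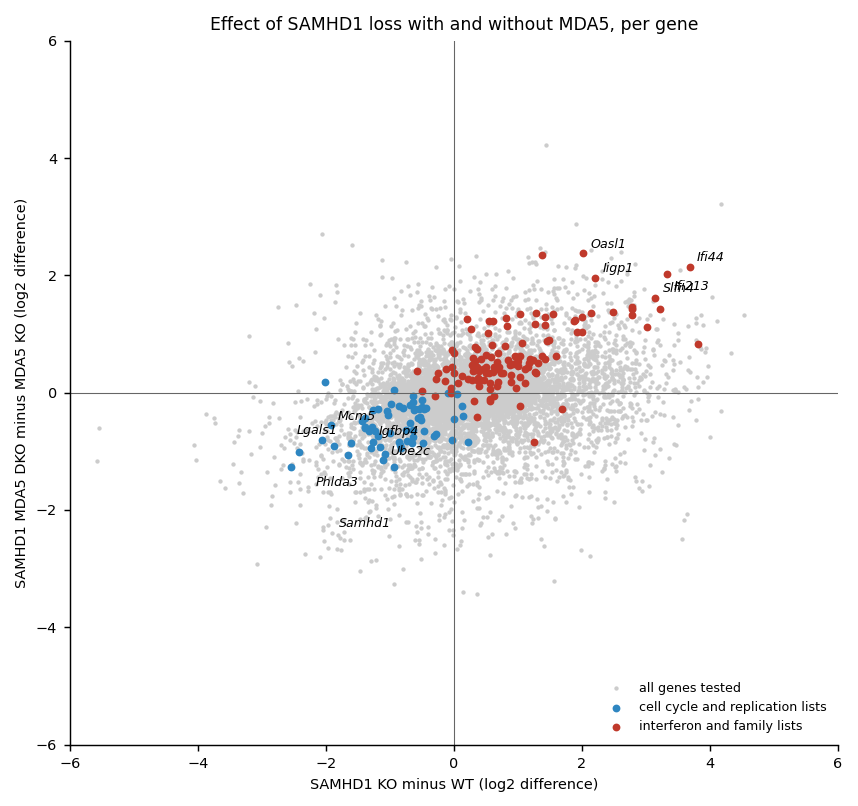
Scatter of all tested genes, with the log2 difference SAMHD1 KO minus WT on the x axis and SAMHD1 MDA5 DKO minus MDA5 KO on the y axis. Red points are genes of the interferon and related family lists, blue points those of the cell cycle and replication lists, and 0 genes lie outside the axes. Most red points sit in the upper right quadrant and most blue points in the lower left. The axes show solved reads. By the sign of the deposited values, 80 of 97 type I interferon genes were higher in both states. Of 40 cell cycle genes, 34 were lower in both by that sign.

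Interferon-stimulated genes made up most of the leading genes that were higher without SAMHD1. Of the 15 same-sign genes with the smallest pooled p, 11 belonged to an interferon list, against 0 of the 15 leading genes that were lower. Of all 15130 tested genes, 121 were in such a list, and the lists were drawn up with earlier results of these data known. Of these 30 leading genes Samhd1 alone passed the pooled test, so the values of the others are descriptions. Their limma adjusted p ran from 0.498 to 0.561, save for Phlda3. Tgtp1 and Tgtp2, and members of the Ifit, Gbp, Oas1, Slfn and Ifi200 families, have near-identical copies, and reads could have been split between these in ways the sources used here do not state. Nor is it stated that counting used strand, so reads of antisense neighbours cannot be told apart.

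Oasl1 encodes a relative of the 2′-5′ oligoadenylate synthetases that in mouse limits translation of Irf7. It had 271, 207 and 200 normalised reads in SAMHD1 KO, against 110, 89.4 and 16.2 in WT. In SAMHD1 MDA5 DKO it had 184, 144 and 83.9, against 18.8, 27.5 and 27.5 in MDA5 KO. The libraries were apart in both MDA5 states, although SAMHD1 MDA5 DKO 3 lay below WT 1 and WT 2. The pooled value was 2.20 ± 0.42 (limma adjusted p = 0.498), from 2.02 with MDA5 present and 2.38 with it absent. Without WT 3 it was 1.78 and passed, with an adjusted p of 0.0449.

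Ifi44, an interferon-induced gene with antiviral activity, had the largest pooled value of the 15, at 2.92 ± 0.59. It had 170, 130 and 96.6 normalised reads in SAMHD1 KO, against 14.9, 7.19 and 6.76 in WT. In SAMHD1 MDA5 DKO it had 59.9, 160 and 12.7, against 6.84, 28.7 and 5.50 in MDA5 KO. The groups were far apart with MDA5 present and overlapped with it absent, through SAMHD1 MDA5 DKO 3 and MDA5 KO 2.

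Iigp1 encodes an immunity-related GTPase that acts on the vacuoles of intracellular parasites. Its normalised reads were 1818, 1722 and 1668 in SAMHD1 KO, against 723, 427 and 168 in WT, and 1301, 1380 and 408 in SAMHD1 MDA5 DKO, against 320, 99.9 and 382 in MDA5 KO. The groups were apart in both states, narrowly so for SAMHD1 MDA5 DKO 3. The pooled value was 2.09 ± 0.43, with 2.21 and 1.96 in the MDA5-present and MDA5-absent pairs.

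Usp18 encodes the protease that removes ISG15 from proteins and dampens signalling at the interferon receptor. It had 991, 1209 and 1198 normalised reads in SAMHD1 KO, against 487, 452 and 334 in WT. In SAMHD1 MDA5 DKO it had 761, 536 and 212, against 240, 98.7 and 249 in MDA5 KO. Again SAMHD1 MDA5 DKO 3 fell within the range of MDA5 KO while the other 5 libraries without SAMHD1 did not, and the pooled value was 1.36 ± 0.31.

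**Figure D2:**
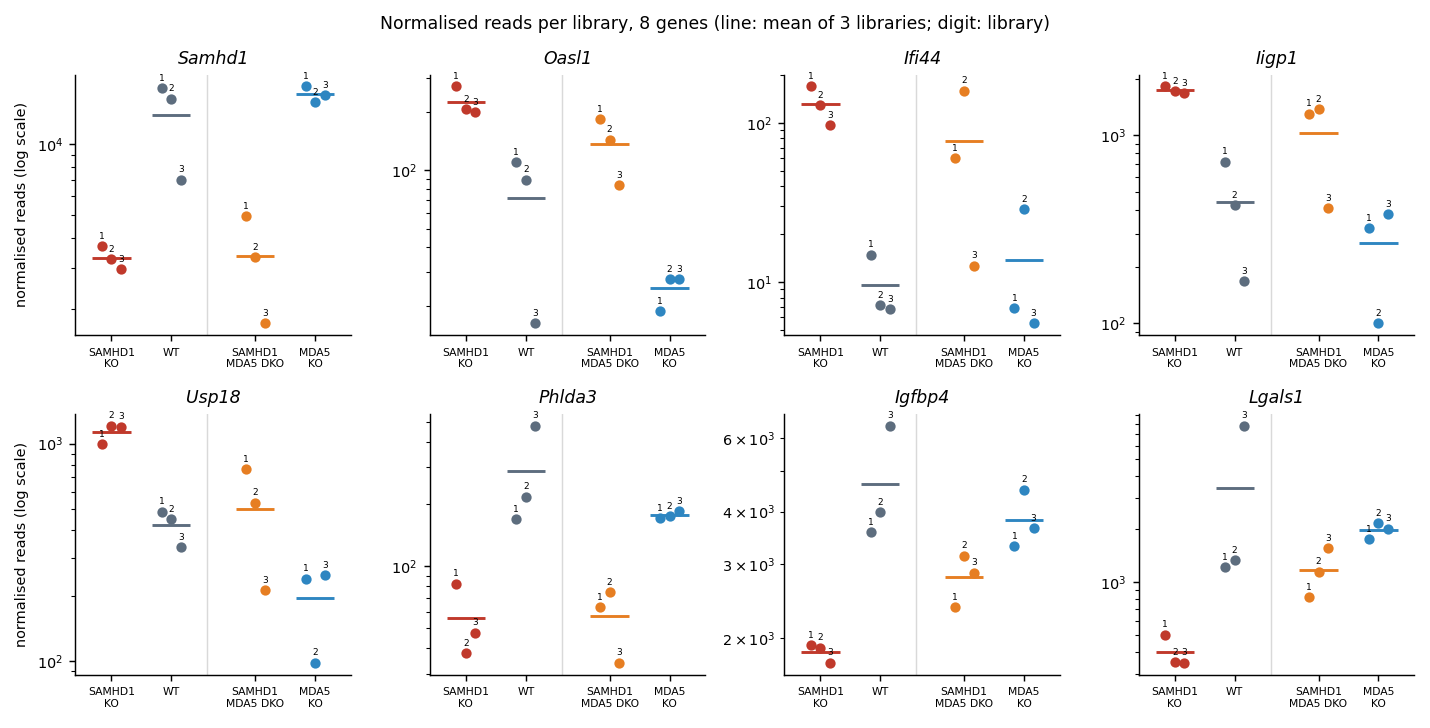
Normalised reads of 8 genes in each library on a log axis, by genotype, with the digit giving the library and the line the mean of 3. Samhd1, Phlda3 and Igfbp4 have all 6 libraries without SAMHD1 below all 6 with it, while for Oasl1, Ifi44, Iigp1 and Usp18 SAMHD1 MDA5 DKO 3 is the lowest library without SAMHD1.

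Rsad2 (viperin, which makes a chain-terminating nucleotide) had 784, 434 and 490 normalised reads in SAMHD1 KO, against 246, 196 and 67.6 in WT. It had 379, 286 and 181 in SAMHD1 MDA5 DKO, against 118, 68.7 and 189 in MDA5 KO. Only SAMHD1 MDA5 DKO 3 and MDA5 KO 3 crossed, and the pooled value was 1.55 ± 0.36. Helz2, a helicase and coactivator of nuclear receptors, had 4478, 2265 and 2504 in SAMHD1 KO, against 1646, 1217 and 838 in WT. Helz2 had 4218, 3761 and 3718 in SAMHD1 MDA5 DKO, against 2412, 2960 and 2855 in MDA5 KO. It was apart in both states, but all 3 MDA5 KO libraries lay above the lowest of SAMHD1 KO, so the separation holds within a state and not across them (pooled value 0.91 ± 0.20).

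Rtp4 (a chaperone of receptors induced by interferon) differed more with MDA5 absent, by 1.22 against 0.55 with it present. Its normalised reads were 4044, 4449 and 4198 in SAMHD1 KO, against 3223, 2879 and 2606 in WT. They were 3158, 3516 and 1685 in SAMHD1 MDA5 DKO, against 1093, 799 and 1680 in MDA5 KO. SAMHD1 MDA5 DKO 3 and MDA5 KO 3 were almost level, and the gene was apart in both states by that margin (pooled value 0.89 ± 0.21). Phf11d, a PHD-finger gene, was also apart in both, with 1364, 1628 and 1547 in SAMHD1 KO, against 1295, 1057 and 881 in WT. Phf11d had 1125, 1151 and 1071 in SAMHD1 MDA5 DKO, against 678, 633 and 835 in MDA5 KO, a pooled value of 0.58 ± 0.14.

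The other interferon-list genes among the 15 were GTPases. Tgtp1 had 118, 117 and 96.6 normalised reads in SAMHD1 KO, against 52.1, 45.2 and 37.8 in WT, and 99.6, 65.2 and 60.5 in SAMHD1 MDA5 DKO, against 28.2, 15 and 52.3 in MDA5 KO. All 6 libraries without SAMHD1 lay above all 6 with it, with a pooled value of 1.31 ± 0.31. Its close copy Tgtp2 had a pooled value of 1.29 ± 0.29, and Gbp6, a guanylate-binding protein, had 1.52 ± 0.36. In both, SAMHD1 MDA5 DKO 3 overlapped the MDA5 KO libraries.

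The 4 leading genes outside the interferon lists were Zmynd15, Dennd6b, A130014A01Rik and Col16a1, the last a collagen chain. Zmynd15, a zinc-finger protein known from mouse spermatids, had 249, 169 and 144 normalised reads in SAMHD1 KO, against 46.5, 39.0 and 29.7 in WT. It had 204, 107 and 110 in SAMHD1 MDA5 DKO, against 121, 77.4 and 105 in MDA5 KO. Its differences were 2.24 with MDA5 present and 0.43 with it absent, and they differed at an unadjusted limma p of 0.00403 (adjusted p = 0.894). Dennd6b, which encodes a DENN-domain protein, likewise gave 2.08 and 0.45, with 81.5, 87.2 and 83.2 in SAMHD1 KO, against 23.2, 18.5 and 16.2 in WT. It overlapped with MDA5 absent, at 96.8, 110 and 124 in SAMHD1 MDA5 DKO, against 111, 104 and 44.0 in MDA5 KO.

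**Figure D3:**
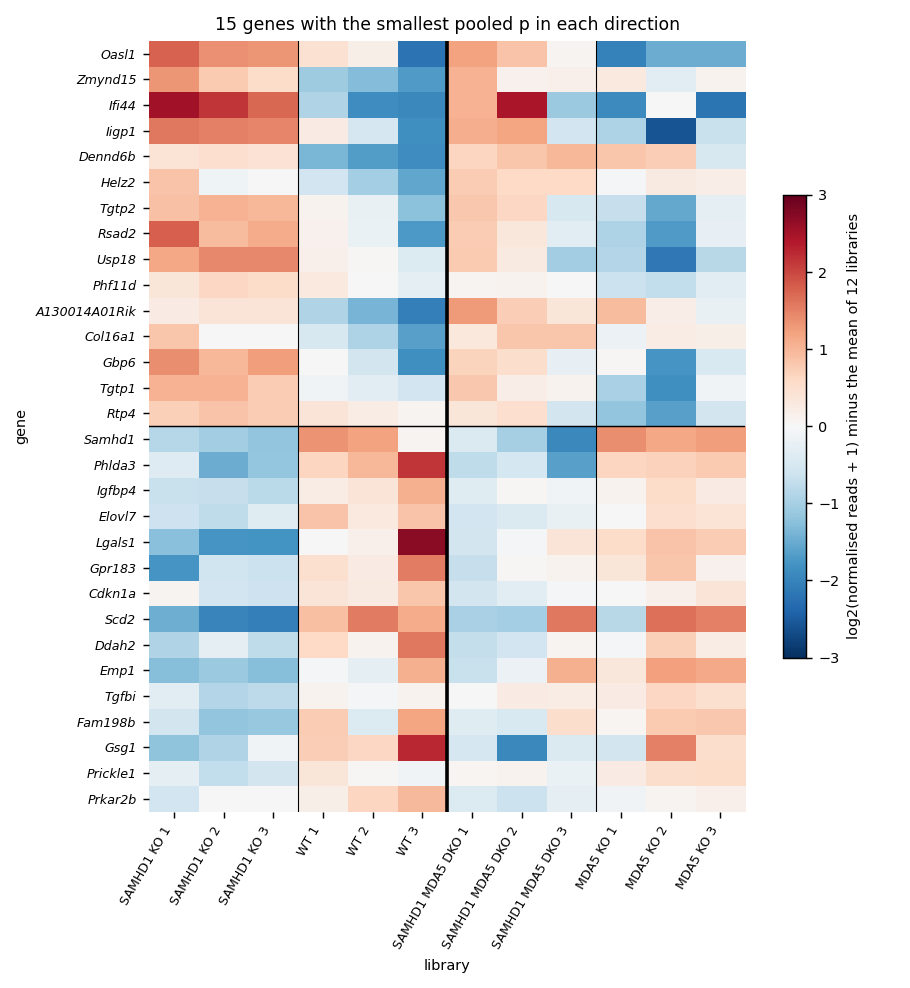
Heat map of the 15 leading higher and 15 leading lower genes in each library, as log2 normalised reads minus the gene's mean over 12 libraries, with a colour limit of 3 and values from -2.59 to 2.70. In the upper rows the SAMHD1 KO columns are redder than the WT columns and in the lower rows bluer, and SAMHD1 MDA5 DKO 3 is paler or bluer than SAMHD1 MDA5 DKO 1 in the interferon-list rows such as Iigp1, Tgtp2 and Usp18.

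Over whole lists, the type I interferon-stimulated genes leaned to the libraries without SAMHD1. Of 97 tested members, 80 were higher in both MDA5 states, 1 was lower in both and 16 were neither, against 32.8% and 32.4% of all tested genes. Here and for the lists below, these counts use the deposited sign, and the medians use the solved reads. Their median pooled value was 0.58, with 0.63 for MDA5 present and 0.48 for MDA5 absent, and the median over all tested genes was 0.01. By unadjusted limma p under 0.05, 60 members were higher and 0 lower. Without WT 3 these were 57 and 0 with a median of 0.39. Without WT 3 and MDA5 KO 2 they were 48 and 1 with a median of 0.36. At this p, 5.18% of all tested genes were higher and 3.13% lower in the main fit. Those shares also apply beside the counts at this p in the lists below. These lists were drawn up with earlier results of these data known, and type I members recur in several of the lists below.

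The mean log2 level over the 97 members was 10.70, 10.58 and 10.59 in SAMHD1 KO, against 10.20, 10.12 and 8.92 in WT. It was 10.41, 10.37 and 9.74 in SAMHD1 MDA5 DKO, against 9.59, 9.36 and 9.72 in MDA5 KO. The genotypes did not overlap within either MDA5 state, but SAMHD1 MDA5 DKO 3 and MDA5 KO 3 lay 0.02 apart at 9.74 and 9.72. The differences of these means were 0.88 with MDA5 present and 0.62 with MDA5 absent. The 0.88 leans on WT 3, at 8.92 against 10.20 and 10.12 in WT 1 and 2, so these differences are not ranked.

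**Figure D4:**
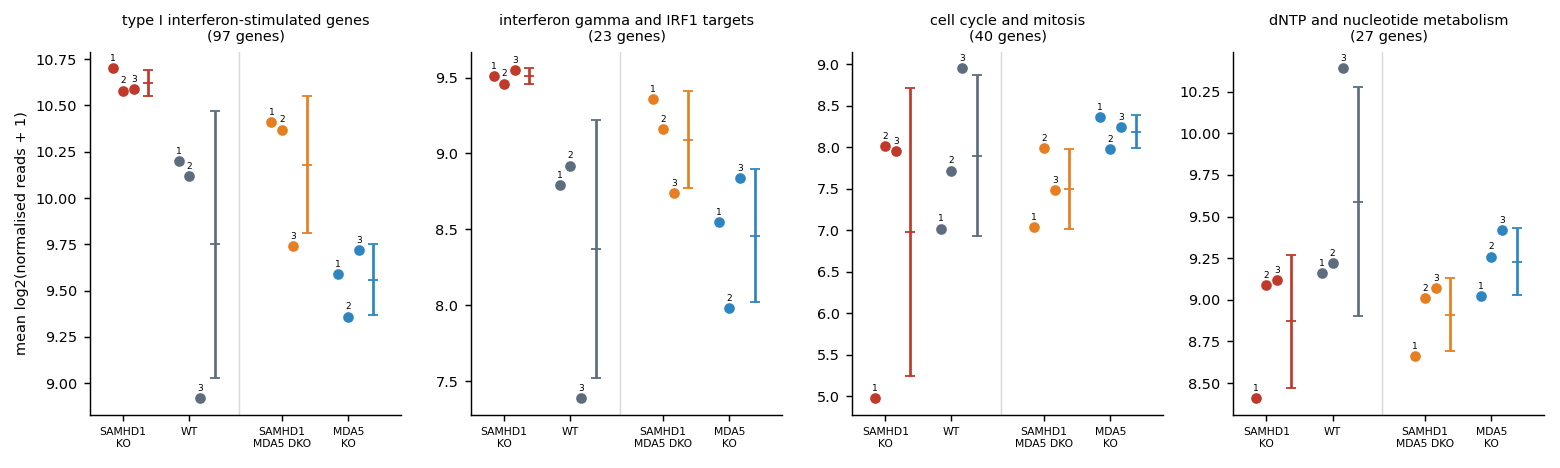
Mean log2 level of 4 gene lists per library, by genotype, with points for libraries and bars for the mean ± SD of 3 libraries. The y axes differ between panels. For the type I list the 3 SAMHD1 KO libraries sit at 10.58 to 10.70 and WT 3 is far down at 8.92, while in the cell cycle panel SAMHD1 KO 1 is the low library at 4.98.

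Among the regulators of the response, Irf7, the factor that amplifies interferon production, had 6120, 3409 and 3514 normalised reads in SAMHD1 KO, against 2852, 2140 and 1323 in WT. It had 3058, 2536 and 1593 in SAMHD1 MDA5 DKO, against 1224, 1140 and 1525 in MDA5 KO. The libraries were apart in both states, with a pooled value of 0.95 ± 0.23.

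Irf1, the factor behind many interferon gamma targets, had 4711, 4482 and 4562 in SAMHD1 KO, against 3853, 3824 and 1601 in WT. It had 4482, 3979 and 3990 in SAMHD1 MDA5 DKO, against 3032, 2920 and 3439 in MDA5 KO, and all 6 libraries without SAMHD1 lay above all 6 with it. Its pooled value was 0.54 ± 0.20, and 0.34 without WT 3. Among the receptor-side factors Stat2 had 0.83 ± 0.32, or 0.54 without WT 3, and Irf9 0.36 ± 0.14, each overlapping in at least 1 state. Over the 8 interferon regulatory factors tested the median was 0.13, with 5 higher in both states, and over the 14 receptor and JAK-STAT genes it was 0.22, with 10 higher in both. Without WT 3 these medians were 0.08 and 0.12, and without WT 2 the last was 0.35.

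The 2′-5′ oligoadenylate synthetases make the second messenger that activates RNase L. Of the 9 genes of that group tested, 8 were higher in both states, with a median pooled value of 1.17 and 6 at an unadjusted p under 0.05. The median was 0.87 without WT 3 and 1.34 without WT 1. Oas1g was apart in both states, with 1176, 1404 and 1343 normalised reads in SAMHD1 KO, against 1093, 706 and 955 in WT. It had 1236, 1009 and 618 in SAMHD1 MDA5 DKO, against 488, 331 and 571 in MDA5 KO, a pooled value of 0.77 ± 0.20. Oas3, the family member that prefers long double-stranded RNA, had a pooled value of 1.19 ± 0.32.

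All 6 tested Ifit genes, whose proteins bind foreign 5′ ends of RNA, were higher in both states, with a median of 1.70. That median was 2.07 with MDA5 present and 1.26 with it absent, and the first leans on WT 3. In WT the list's mean log2 level was 4.27, 5.39 and 1.44. The pooled median was 1.22 without WT 3 and 2.08 without WT 2. Ifit2 had 72.3, 51.6 and 58.7 normalised reads in SAMHD1 KO, against 19.5, 32.9 and 0 in WT, and 39.7, 45.8 and 39.0 in SAMHD1 MDA5 DKO, against 20.5, 6.24 and 24.8 in MDA5 KO. All 6 libraries without SAMHD1 were above all 6 with it, and the same held for the low-read Ifit1bl2. The pooled value of Ifit2 was 2.10 ± 0.73, or 1.32 without WT 3. Ifit1 and Ifit3, with pooled values of 1.56 ± 0.55 and 1.64 ± 0.46, overlapped where SAMHD1 MDA5 DKO 3 fell within the range of MDA5 KO. Ifit1 gave 0.99 and Ifit3 1.19 without WT 3, in which Ifit1 and Ifit3 each had 18.9 normalised reads.

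The PYHIN genes encode sensors and regulators related to AIM2. All 11 tested were higher in both states, with a median of 0.80 and 9 at an unadjusted p under 0.05. That median was 0.55 without WT 3 and 0.97 without WT 1. Ifi213 had 443, 479 and 504 normalised reads in SAMHD1 KO, against 73.4, 52.4 and 25.7 in WT. It had 380, 503 and 19.5 in SAMHD1 MDA5 DKO, against 47.0, 22.5 and 50.5 in MDA5 KO. SAMHD1 MDA5 DKO 3 was the lowest library of all 12, and the pooled value of 2.68 ± 0.66 became 3.42 without it and passed the test with a limma adjusted p of 0.00433. Ifi209 and Ifi211 were apart in both states with 1.01 ± 0.33, or 0.64 without WT 3, and 0.80 ± 0.26.

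Of the 7 Schlafen genes tested, which act on growth and on transfer RNA, 4 were higher in both states and 3 were not. Slfn4 had 7747, 8930 and 7596 normalised reads in SAMHD1 KO, against 2788, 1578 and 170 in WT. It had 13200, 12550 and 4195 in SAMHD1 MDA5 DKO, against 5532, 1476 and 2939 in MDA5 KO. The pooled value was 2.38 ± 0.59, and 1.78 without WT 3.

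Targets of interferon gamma and IRF1 include GTPases and guanylate-binding proteins of cell-autonomous defence. Of 23 tested, 19 were higher in both states and 0 lower in both, with a median of 0.71 and 17 at an unadjusted p under 0.05. That median was 0.50 without WT 3 and 0.83 without WT 2. The list's mean log2 level was 9.51, 9.46 and 9.55 in SAMHD1 KO, against 8.79, 8.92 and 7.39 in WT. It was 9.36, 9.16 and 8.74 in SAMHD1 MDA5 DKO, against 8.55, 7.98 and 8.84 in MDA5 KO, where SAMHD1 MDA5 DKO 3 fell below MDA5 KO 3.

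**Figure D5:**
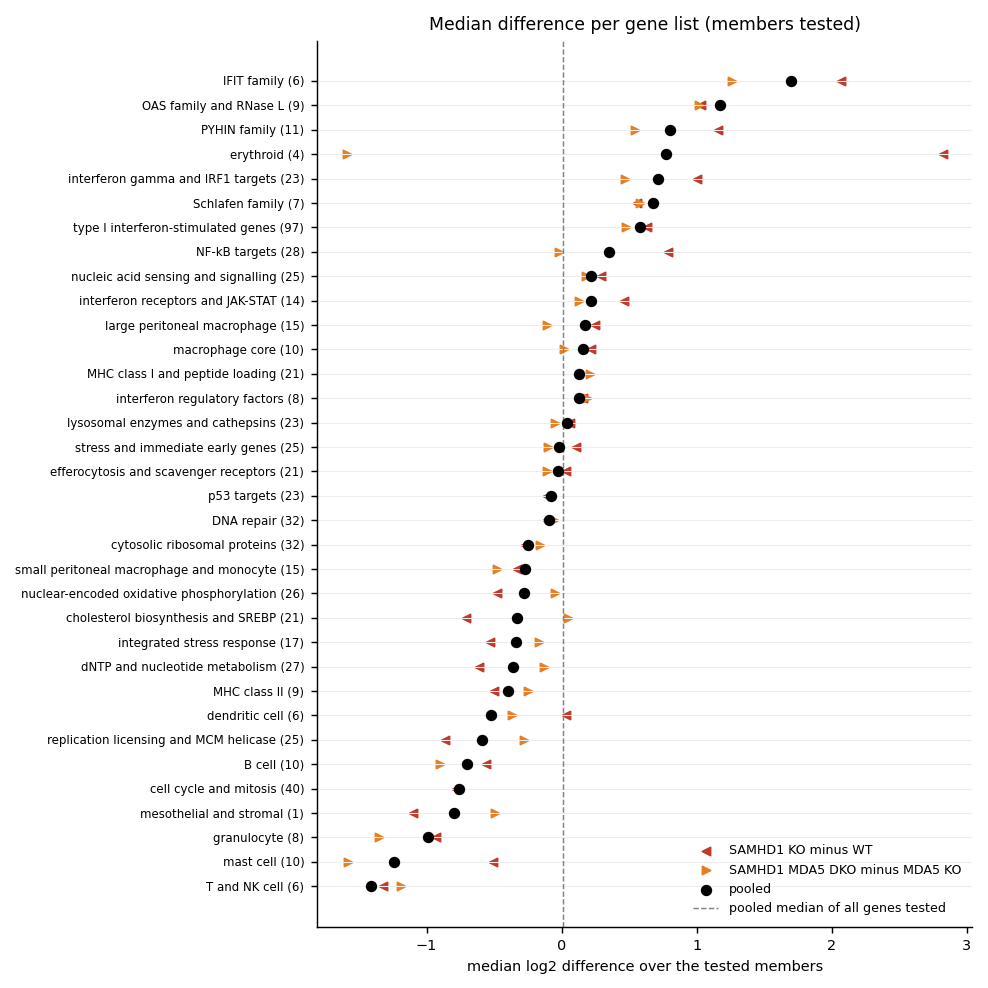
Median log2 values of 34 gene lists, with the pooled value in black and triangles for the differences with MDA5 present and absent. The dashed line is the median of all tested genes. The IFIT family lies farthest to the right of the interferon lists at 1.70, and the cell cycle list at -0.76 is on the other side.

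The interferon genes themselves gave too few reads for a test. Of 10 listed, 4 were in the files. Ifnb1 had 2 reads in all over the 6 libraries without SAMHD1, against 0 over the 6 with it. Ifng had 2 against 0, Ifna2 1 against 0 and Ifnl2 1 against 6. A difference in the ligands was not detectable at this depth, and intervals on reads cover counting error only, since reads are not independent molecules.

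Among sensors, Zbp1, which binds Z-form nucleic acids, was apart in both states. It had 2309, 1488 and 1532 normalised reads in SAMHD1 KO, against 1462, 1063 and 973 in WT, and 1537, 1543 and 1160 in SAMHD1 MDA5 DKO, against 664, 714 and 1066 in MDA5 KO. Its pooled value was 0.71 ± 0.18. Trim25, a ubiquitin ligase of RIG-I signalling, and Ikbke, a kinase of IRF3 and IRF7, had 0.65 ± 0.21 and 0.71 ± 0.21 with overlap. Of the 25 sensing genes tested 13 were higher in both states and 4 lower in both, with a median of 0.22.

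Genes of antigen presentation were taken by class, and no test compared the classes. Of 21 class I and peptide-loading genes, 13 were higher in both states and 1 lower in both (median 0.13, and 0.08 without MDA5 KO 1 or 0.20 without MDA5 KO 3). Nlrc5, the transactivator of class I genes, had 1.04 ± 0.27, and H2-T24, a non-classical class I gene, 1.30 ± 0.41, or 0.84 without WT 3. Of 9 class II genes 0 were higher in both states and 4 were lower in both (median -0.40, and -0.15 without MDA5 KO 3), and 0 reached an unadjusted p under 0.05.

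Of 28 NF-kB targets tested, 12 were higher in both states, 3 lower in both and 13 neither, and 5 were higher and 0 lower at an unadjusted limma p under 0.05. The median pooled value was 0.35, and 0.20 without WT 3. The median difference was 0.79 with MDA5 present and -0.02 with it absent. Nfkbiz, an atypical regulator of NF-kB, had 2493, 1407 and 1401 normalised reads in SAMHD1 KO, against 588, 606 and 384 in WT. It had 1656, 1489 and 801 in SAMHD1 MDA5 DKO, against 1978, 563 and 1554 in MDA5 KO, so the groups overlapped only with MDA5 absent, with differences of 1.72 and 0.06.

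Counted by library, 69 tested genes (0.456%) had their libraries apart and higher without SAMHD1 in both MDA5 states, and 45 (0.297%) apart and lower. Of the 69, 22 belonged to an interferon list, against 121 tested genes in any such list and 0 of the 45. All 6 libraries without SAMHD1 lay above all 6 with it in 20 genes (0.132%), 9 of them interferon-list genes, and below in 16 (0.106%). Total-read scaling gave 51 apart and higher and 53 apart and lower.

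Besides those above, the 9 included Mx1, Rnf213, Parp14, Samd9l and Gbp5, which were named after their values had been seen. Mx1 encodes a GTPase that blocks influenza virus, and its pooled value was 2.12 ± 0.67, or 1.35 without WT 3. C3, the central complement component, was above in all 6 as well and lies outside these lists, with 1.40 ± 0.50, or 0.85 without WT 3. Its difference was 2.45 with MDA5 present and 0.34 with it absent. Leaving out a library relaxes the criterion and can only add genes. It gave 566 and 291 without MDA5 KO 1, 271 and 171 without SAMHD1 MDA5 DKO 3, 124 and 106 without WT 1, 111 and 99 without SAMHD1 MDA5 DKO 2, 106 and 73 without MDA5 KO 3, 82 and 72 without WT 3, and 100 and 79 without SAMHD1 KO 1.

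Among the genes lower without SAMHD1, Phlda3 came first after Samhd1 itself. Phlda3 is a target of p53 that restrains the kinase AKT. It had 82.3, 37.9 and 47.7 normalised reads in SAMHD1 KO, against 169, 217 and 478 in WT, and 63.4, 74.9 and 34.1 in SAMHD1 MDA5 DKO, against 170, 175 and 185 in MDA5 KO. All 6 libraries without SAMHD1 lay below all 6 with it. The pooled value was -1.97 ± 0.31 (limma adjusted p = 0.256).

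Cdkn1a, the p53 target that encodes the cyclin-dependent kinase inhibitor p21, was also apart in both states. It had 2545, 1616 and 1566 normalised reads in SAMHD1 KO, against 3177, 2910 and 4290 in WT, and 1661, 1917 and 2344 in SAMHD1 MDA5 DKO, against 2433, 2680 and 3150 in MDA5 KO. Its pooled value was -0.68 ± 0.17. Of the 23 p53 targets tested, these genes included, 12 were lower in both states and 5 higher in both, with a median of -0.08.

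Igfbp4, a secreted binder of insulin-like growth factors, had 1925, 1895 and 1745 normalised reads in SAMHD1 KO, against 3579, 3985 and 6411 in WT. It had 2363, 3142 and 2863 in SAMHD1 MDA5 DKO, against 3308, 4516 and 3649 in MDA5 KO. All 6 libraries without SAMHD1 lay below all 6 with it, with a pooled value of -0.87 ± 0.16. The same held for Gpr183, a receptor for oxysterols, at -1.19 ± 0.28, and for Elovl7, a fatty acid elongase, at -0.98 ± 0.22.

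Lgals1 encodes galectin-1, a lectin that binds beta-galactosides. It had 502, 349 and 347 normalised reads in SAMHD1 KO, against 1213, 1329 and 7792 in WT, and 820, 1146 and 1558 in SAMHD1 MDA5 DKO, against 1763, 2168 and 2017 in MDA5 KO. The groups were apart in both states and WT 3 was far above the rest. The pooled value of -1.68 ± 0.39 became -1.24 without WT 3 and then passed the test, with a limma adjusted p of 0.0449.

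Scd2, a stearoyl-CoA desaturase, had 150, 104 and 99.0 normalised reads in SAMHD1 KO, against 767, 1223 and 897 in WT. It had 209, 202 and 1229 in SAMHD1 MDA5 DKO, against 232, 1299 and 1187 in MDA5 KO, so that 1 library of each genotype without MDA5 stood with the other genotype. Its pooled value was -1.97 ± 0.50. The 21 genes of cholesterol synthesis had a median of -0.71 with MDA5 present and 0.05 with it absent, with 11 lower in both states and 2 higher in both.

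Genes of cell division were lower without SAMHD1 in most members, though most did not reach even an unadjusted p under 0.05. Of 40 cell cycle and mitosis genes tested, 34 were lower in both states and 0 higher in both, against 32.4% of all genes lower in both. The median was -0.76, with -0.78 and -0.75 for MDA5 present and absent. At an unadjusted limma p under 0.05, 4 of the 40 members were lower, against 3.13% of all tested genes. The list's mean log2 level was 4.98, 8.01 and 7.95 in SAMHD1 KO, against 7.02, 7.72 and 8.95 in WT. It was 7.04, 7.99 and 7.48 in SAMHD1 MDA5 DKO, against 8.36, 7.98 and 8.24 in MDA5 KO. The genotypes overlapped in both states, SAMHD1 KO 1 was far below all others, and without it the median was -0.33.

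Ube2c, the ubiquitin-conjugating enzyme of the anaphase-promoting complex, had 84.0, 199 and 187 normalised reads in SAMHD1 KO, against 186, 277 and 603 in WT. It had 94.0, 174 and 80 in SAMHD1 MDA5 DKO, against 287, 207 and 244 in MDA5 KO. The groups overlapped narrowly with MDA5 present and were apart with it absent, with a pooled value of -1.13 ± 0.33. Ccne1 (cyclin E1) had -1.91 ± 0.69, or -1.29 without SAMHD1 KO 1, and Aurkb, a mitotic kinase, -1.05 ± 0.47, or -0.63 without WT 3.

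Of 25 genes of replication licensing and the MCM helicase, 21 were lower in both states and 1 was higher in both (median -0.59, with -0.86 and -0.28 for MDA5 present and absent). At an unadjusted limma p under 0.05, 6 were lower. That count was 1 without WT 3, where the median was -0.35, 0 without SAMHD1 KO 1, 9 with total-read scaling and 10 with upper-quartile scaling. Mcm5, a subunit of the helicase, had 288, 675 and 631 normalised reads in SAMHD1 KO, against 1143, 783 and 7437 in WT. It had 735, 1481 and 2026 in SAMHD1 MDA5 DKO, against 1188, 2282 and 2631 in MDA5 KO. Only the MDA5-present libraries were apart, and the pooled value of -1.24 ± 0.50 was -0.74 without WT 3.

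Genes of deoxynucleotide and nucleotide metabolism, the pathway of SAMHD1, were lower in both states in 19 of 27 tested members, a count that includes Samhd1, and higher in both in 3. The median was -0.36, and -0.15 without WT 3 or -0.56 without WT 1. Rrm1, the large subunit of ribonucleotide reductase, had 950, 1157 and 1219 normalised reads in SAMHD1 KO, against 1747, 1540 and 4056 in WT. It had 1149, 1771 and 1849 in SAMHD1 MDA5 DKO, against 1643, 2589 and 2505 in MDA5 KO. Its pooled value was -0.75 ± 0.24, with overlap in the MDA5-absent pair. Cmpk2, a mitochondrial nucleotide kinase that interferon induces, went the other way at 0.55 ± 0.17.

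Ribosomal protein genes were lower in both states in 28 of 32 tested and genes of oxidative phosphorylation in 22 of 26, with medians of -0.25 and -0.28. None of either list reached an unadjusted p under 0.05, and without WT 3 the medians were -0.02 and -0.06, and without WT 1 both were -0.43. Of 17 genes of the integrated stress response 10 were lower in both and 1 higher in both (median -0.34). The lists of DNA repair (32 tested, median -0.09), stress and immediate early genes (25, -0.02), lysosomal enzymes (23, 0.04) and efferocytosis (21, -0.03) lay near the median of all genes. In the last, Stab1, a scavenger receptor of macrophages, had a pooled value of -0.81 ± 0.24.

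Markers of macrophages were present in every library, and all 10 core markers were in the files. The summed core markers ran from 1818215 to 5209967 normalised reads without SAMHD1 (median 2072900), against 610884 in WT 3 to 3064995 with it (median 2346219). The highest sums were those of SAMHD1 KO 2 and 3, at 5209967 and 4937424, against 1864320 in SAMHD1 KO 1. The mean log2 level of the list was 14.75, 14.68 and 14.71 in SAMHD1 KO 1, 2 and 3, so the sums follow the most abundant members. Summed markers of large peritoneal macrophages ran from 2087911 to 4882501 without SAMHD1 (median 2960596), against 1887783 to 4696622 with it (median 3011875). In a bulk sample, fewer cells of a type and less RNA per cell cannot be told apart.

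Most tested markers of mast, B, T and NK cells and granulocytes were lower in both states without SAMHD1. Reads allowed a test of 10 of 12 listed mast cell markers and 10 of 14 listed B cell markers. Of the T and NK cell list 6 of 15 were tested, and of the granulocyte list 8 of 14. Of mast cell markers, 9 of 10 tested were lower in both states (median -1.24), with summed levels of 1524 to 3775 without SAMHD1 (median 2824), against 2767 to 15270 with it (median 4117). That median was -0.55 without WT 2 and -2.12 without WT 1. Of B cell markers 8 of 10 were lower in both, with sums of 786 to 1439 without SAMHD1 (median 846), against 513 to 13570 with it (median 1288). The highest was WT 2, without which the list's median turned from -0.70 to 0.32. Without WT 1 it was -1.26.

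Of T and NK cell markers 5 of 6 were lower in both, with sums of 141 to 401 without SAMHD1, against 151 to 771 with it. Of granulocyte markers 6 of 8 were lower in both (median -0.99, and -0.61 without WT 2), but their sums ran from 13188 to 17880 without SAMHD1, against 5336 to 17359 with it. Small macrophage and monocyte markers were lower in both states in 8 of 15 (median -0.27, and -0.10 without SAMHD1 KO 1 or -0.56 without WT 1), with sums of 21824 to 92764 without SAMHD1, against 30550 to 107187 with it. Summed dendritic cell markers ran from 700 to 2731 without SAMHD1, against 1082 to 4348 with it, and erythroid markers from 2.79 to 585, against 12.1 to 518.

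Some defining markers were at 0 in all 3 libraries of a genotype. Among these were Ncr1 in SAMHD1 KO and SAMHD1 MDA5 DKO, Vpreb3 in SAMHD1 KO, SAMHD1 MDA5 DKO and MDA5 KO, Tpsab1 in SAMHD1 MDA5 DKO and MDA5 KO, and Epx in SAMHD1 KO, SAMHD1 MDA5 DKO and WT. The part of these cells in the differences of class II, cell cycle or interferon genes was not tested.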

How the data were processed

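Total RNA of mouse peritoneal macrophages was extracted with the Rneasy mini plus kit (Qiagen), per the labels. The submitters' processing notes name STAR, Salmon, R 4.1.2 and DESeq2 with GRCm38 and mm10. Per the labels' extract protocol, Ensembl Gene 61, bedtools 2.16.2 and pBWA 0.5.9-r32-MPI-patch2 were used. Which of these made the tables is not given in the sources used here. The authors deposited 6 tables, each with log2 values of 6 libraries of a pair of genotypes. From the values, these are variance-stabilised reads from which the authors' processing had removed a mean difference between sets of libraries. The adjusted set was WT 3, SAMHD1 KO 2 and SAMHD1 MDA5 DKO 3, with 9 libraries outside it. Within each table, the mean of its adjusted libraries was equal to the mean of the rest of that table. The deposited baseMean signal averages size-factor-scaled reads over a table. The deposited p-value columns were not used.

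Whole reads were solved from all 6 tables together, with a tolerance of 0.05 reads, in 99.898% to 100% of genes per table, and libraries held in several tables disagreed in 0 genes. Count models were not used here, since the solved reads are derived and not a count file. The sign rule used the deposited log2 columns, of which the pooled value is the average of both differences. The main tests used reads divided by median-of-ratios size factors, as log2(value + 1), over 15130 genes. These reached a CPM of 0.228 or more, equal to 10 reads for the library of median depth, in 3 or more libraries. limma 3.58.1 in R 4.3.3 fitted genotype over all 12 libraries, with a variance trend, robust moderation and Benjamini-Hochberg adjustment at 0.05. Scripts were tested on simulated data. Fold changes on this scale understate the change of genes with few reads.

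The members, the gene lists and the tests were chosen with earlier results of these data known. Genes were named by this rule: Samhd1 and Ifih1, the 15 same-sign genes in each direction with the smallest pooled p whose normalised reads averaged 50 or more, and up to 4 same-sign genes of each list with the smallest p. Promoters were printed for 5 genes of the type I interferon list that were higher in both states. They had the smallest pooled p among those with an entry in RefSeq. Mx1, Rnf213, Parp14, Samd9l, Gbp5, C3 and the interferon genes were named outside it. Alternatives were other scalings, filters, pseudocounts, limma variants, the deposited columns and leaving out libraries.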

Additional observations from a re-analysis of the deposited data

Results flagged for a closer look

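Among the 30 leading genes, the highest or lowest library on a side lay far from the others in 8 of 60 cases. In these, its gap to the nearest library, divided by the range of the 6, passed 0.625. Gap and range were taken on the log2 scale, while the reads printed beside each ratio are not on that scale. For 6 independent values of a single group, about 1 case in 20 would pass. Each side here joins a pair of genotypes, and the genes were chosen by p from these same libraries. The 8 cases therefore cannot be set against that rate. WT 3 was the far library in 3 cases. It was the lowest library with SAMHD1 for Samhd1 (ratio 0.828, 7067 normalised reads, with the nearest at 14950), and the highest for Phlda3 (ratio 0.762, 478 with the nearest at 217) and Lgals1 (ratio 0.688, 7792 with the nearest at 2168).

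SAMHD1 MDA5 DKO 3 was the far library in 4 cases. It was the lowest library without SAMHD1 for Iigp1 (ratio 0.776, 408 normalised reads, with the nearest at 1301), Tgtp2 (ratio 0.715, 381 with the nearest at 811) and Rtp4 (ratio 0.647, 1685 with the nearest at 3158). It was the highest for Scd2 (ratio 0.705, 1229 with the nearest at 209). MDA5 KO 1 was the lowest library with SAMHD1 for Scd2 (ratio 0.694, 232 with the nearest at 767).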

How the results depend on the processing

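The pooled test called 1 gene, and 0 genes with total-read scaling, with limma without trend, and with SAMHD1 KO 2 and 3 as 1 library (an alternative chosen after seeing the data). Samhd1 was then -2.16, -2.15 and -2.13. The pooled count was 624 (285 higher, 339 lower) by voom with library quality weights, 3007 (1596 higher, 1411 lower) by limma with array quality weights and 4 in the 9 libraries outside the adjusted set (Samhd1, Ifi213, Lgals1, Oasl1). It was 83 (60 higher, of which 19 in interferon lists, and 23 lower) on the deposited log2 columns and 22 without SAMHD1 MDA5 DKO 3 there. In those columns the adjusted libraries are not free values, since their mean equals that of the rest of a table. The fit took them as free, so the spread may be understated and the p-values too small. The voom and array quality weights were 0.07 and 0.0558 for WT 3, and 0.1922 and 0.1926 for SAMHD1 KO 1. They were 5.908 and 9.104 for SAMHD1 KO 3, 3.693 and 2.158 for SAMHD1 KO 2, and 1.664 and 6.614 for WT 2. SAMHD1 KO 2 and 3 are the pair that lay closest to each other. With MDA5 present the count of 0 became 1 without trend, 2140 and 6829 with the 2 kinds of weights, 1 in the 9 libraries, 2038 and 796 on the deposited columns with and without SAMHD1 MDA5 DKO 3, and 1 without WT 3 and MDA5 KO 2. With MDA5 absent it became 1 and 2 with the weights and 2 in the 9 libraries, and the difference between the effects gave 2 and 1333 with the weights. The cause was not tested.

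Leaving out each library in turn gave 0 to 3 pooled calls, 0 to 2 with MDA5 present, 0 to 1 with it absent and 0 to 0 for the difference, and a Samhd1 value of -2.35 to -1.95. The Samhd1 call was lost in 9 of these 12 fits and kept without WT 3, SAMHD1 MDA5 DKO 1 or SAMHD1 MDA5 DKO 3. Same-sign genes ran from 4184 to 5189 higher and 3943 to 5072 lower, genes with libraries apart from 79 to 566 and 55 to 291, and the type I median from 0.39 to 0.68. Without WT 3 and MDA5 KO 2, 114 and 109 genes were apart. Of 4301 values of 144 named genes under the alternatives, 4068 kept direction and side of the threshold, 216 passed it, 12 no longer did, all of them Samhd1, and 5 reversed. Tgfb2 (0.33) became -0.14 with either kind of weights, and -0.07 without WT 3 and MDA5 KO 2. Leaving out each library gave Tgfb2 -0.00 (without WT 3) to 0.52, and Ms4a1 (-1.09) -1.66 to 0.02 (without WT 2). The labels give no ground for pairing by replicate number, and correlations between same-numbered libraries ran from -0.057 to 0.337, not all over 0.1, so the numbers were not used as a pairing. Of 12 libraries, 9 correlated best with their own number, a hint from the data and not the design. The replicate block called 1 gene, Samhd1 (adjusted p = 0.00472).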
